A study of Mus with 48 samples.

Results

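The cerebellum of mice given the toxin MPTP and then trained on a treadmill (MPTP + EX, mice E26 to E29) was compared with that of mice given saline (S1 to S4). These 8 libraries, 4 a side and 1 mouse each, were taken by region and treatment from the 48 RNA-seq libraries of the series, which cover the cortex, cerebellum, substantia nigra (SN) and striatum of 12 mice. All were female C57BL/6J mice bought at 8 weeks of age. The MPTP + EX mice received 10 subcutaneous doses of MPTP at 25 mg/kg together with probenecid, and then ran on a treadmill for 12 weeks, 5 days a week and 40 min a day, at up to 15 m/min. A further group (mice M6, M16, M21 and M23) had MPTP without exercise, and its cerebellar values are given beside the others without a test. MPTP + EX mice differ from saline mice in both the toxin and the training, so the parts of each in a difference between them cannot be told apart. Whether saline mice also received probenecid was not stated, so its part cannot be told apart either. The mice were killed after the last of their behavioural tests, and neither the hour of death nor the time since the last run was stated.

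MPTP is turned into a toxic ion that enters dopaminergic neurons through their dopamine transporter, and it is used to model Parkinson's disease in rodents. The cerebellum adjusts movement: granule cells, its most numerous neurons, send excitatory fibres to Purkinje cells, whose inhibitory output leaves the cortex of the cerebellum, and Bergmann glia support the Purkinje cells. It holds few dopaminergic neurons. Its neurons nevertheless respond to motor activity with immediate early genes, and all its cells carry a circadian clock and receptors for glucocorticoids, the steroid hormones released in stress and in exercise.

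Each gene was measured as FPKM, the number of fragments scaled to the length of the transcript and to the total of the library, which allows levels of different genes to be compared per length. Of the genes in the table, 12945 had a mean above 1 FPKM over the 8 libraries and were tested on log2(FPKM + 1) with limma, two-sided, with p adjusted over all of them by the Benjamini-Hochberg method. A log2 fold change is MPTP + EX minus saline on that scale, which understates the change of genes near 1 FPKM. "Rose" and "fell" are kept for genes whose adjusted p was under 0.05. The p-values measure the spread between 4 mice a group. Read totals are unknown, but the smallest steps between FPKM values showed that depth differed by up to 1.51-fold between the 8 libraries, with E26 the deepest.

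The libraries carried the markers of cerebellum. Gabra6, a GABA receptor subunit of granule cells, was 204 to 241 FPKM in MPTP + EX mice and 176 to 238 FPKM in saline mice. Pcp2, a Purkinje cell gene, was 920 to 1126 FPKM in MPTP + EX mice and 883 to 1178 FPKM in saline mice, and Calb1, Cbln1 and Slc1a3 (Purkinje cells, granule cells and Bergmann glia) were 239 FPKM or more in every library. One saline library, S2, stood apart. Its median correlation with the other 7 was 0.978, where the rest had 0.985 to 0.989. The summed FPKM of 12 markers of neocortical neurons was 153 in S2, against 88.5 to 98.0 in the 4 MPTP + EX libraries and 91.3 to 93.7 in the other saline libraries. Slc30a3, a zinc transporter of forebrain synapses, was 14.5 FPKM in S2 and 0.728 to 2.09 FPKM in the other 7. Markers of blood were also highest in S2 (summed FPKM 1475, against 151 to 385 in the other 7), and those of the choroid plexus, the tissue that makes cerebrospinal fluid, were lowest in it (86.8, against 259 to 1232). Values without S2 are therefore given beside many of the results they change.

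**Figure D1:**
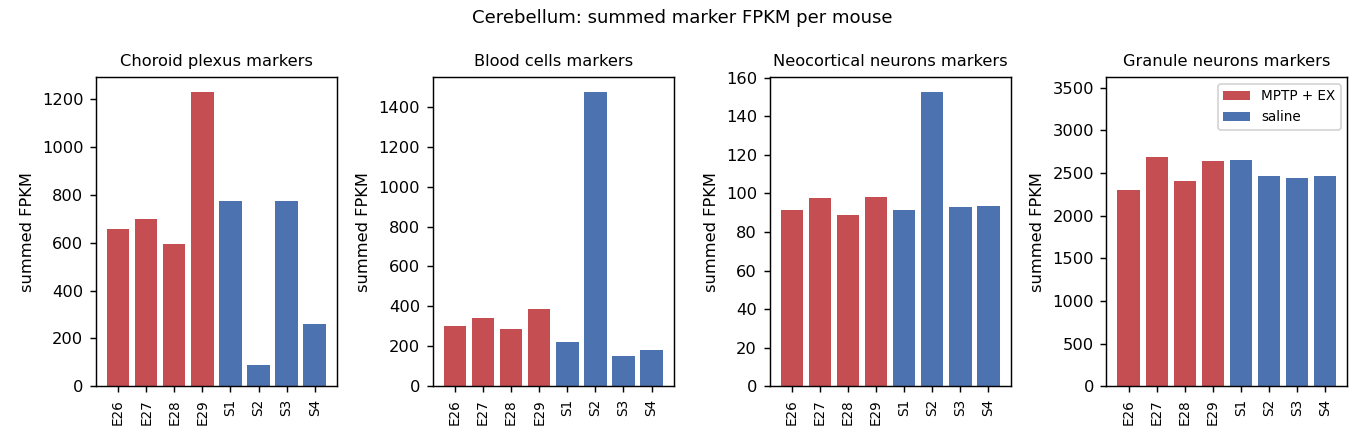
Summed FPKM of 4 marker lists (y axis) in each of the 8 cerebellar libraries (x axis, one bar a mouse, MPTP + EX to the left of saline). S2 has the highest blood and neocortical sums (1475 and 153) and the lowest choroid plexus sum (86.8), while the granule neuron sum is 2300 to 2686 in MPTP + EX mice and 2437 to 2648 in saline mice.

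2 genes of the cerebellum passed the adjusted threshold. Fos, an immediate early gene whose RNA appears within minutes of neuronal activity and codes for a transcription factor, rose. It was 27.8, 23.1, 21.7 and 29.4 FPKM in MPTP + EX mice E26 to E29, against 9.59, 12.1, 12.0 and 8.33 FPKM in saline mice S1 to S4. Every MPTP + EX library was above every saline library, and the log2 fold change was 1.21 with a standard error of 0.126 (adjusted p = 0.015 from limma). 5730409E04Rik, a gene named only by a clone identifier, fell, with 18.3, 19.4, 19.9 and 21.7 FPKM in MPTP + EX mice and 28.7, 29.4, 28.6 and 32.2 FPKM in saline mice (log2 fold change -0.56, standard error 0.0616, adjusted p = 0.015). Its groups did not overlap either. In the RefSeq annotation of GRCm38.p6 this gene overlaps Gm40250, and reads of overlapping genes may not be told apart here.

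Both calls depended on single mice. The number of genes past adjustment was 0 without E26 or S1, 1 without E28, E29, S3 or S4, 3 without S2 and 6 without E27. With 1 mouse left out at a time, Fos kept a log2 fold change of 1.11 to 1.28, but its adjusted p from limma was 0.0605 without E26, 0.0509 without E29 and 0.0522 without S1. For 5730409E04Rik, the log2 fold change stayed at -0.60 to -0.53, and its adjusted p was 0.0605 without E26, 0.0963 without E28, 0.0522 without S1, 0.0624 without S3 and 0.0746 without S4.

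The 2 calls amount to 0.00772% of tested genes in each direction. Of all 12945 genes, 7152 (55.2%) were higher on average, with a median log2 fold change of 0.02. At an unadjusted p under 0.05 there were many more calls, 1230 higher (9.5%) and 923 lower (7.13%). When each library was scaled to the same median FPKM, that split turned to 893 higher and 1178 lower, so which direction had more genes depended on the scaling. The 2 groups did not overlap for 761 genes that were higher (5.88%) and 494 that were lower (3.82%). Without S2, 1560 genes in place of 2153 had an unadjusted p under 0.05, 837 higher and 723 lower. That total also moved with other mice, from 1479 without E28 to 2618 without S1. Counts of members below are to be read against these shares, and counts without S2 against 837 and 723 of 12945 genes.

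After Fos and 5730409E04Rik, the next adjusted p was 0.177, shared by many genes. The 25 genes of lowest p whose groups did not overlap were 14 higher and 11 lower in MPTP + EX mice, with absolute log2 fold changes of 0.225 to 1.71. Since low p and the lack of overlap chose them, their values are a description.

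Among these were RNAs that code for no protein. Snord53, a small nucleolar RNA that overlaps Wdr43 and may share its fragments, had 1.81, 1.198, 2.28 and 2.30 FPKM in MPTP + EX mice, against 0.137, 0.568, 0.351 and 0.388 FPKM in saline mice (log2 fold change 1.08). The microRNA gene Mir2861 had 14.6 to 19.4 FPKM in MPTP + EX mice and 22.8 to 29.6 FPKM in saline mice. Whether its fragments come from the mature microRNA was not tested. The Gt(ROSA)26Sor transcript, which overlaps Thumpd3, was 11.8 to 14.6 FPKM in MPTP + EX mice and 6.59 to 9.99 FPKM in saline mice.

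Protein-coding genes of this set that were lower in MPTP + EX mice included kinases, chromatin and signalling genes. Lmtk3, a brain kinase, was 63.98, 65.8, 61.7 and 65.0 FPKM in MPTP + EX mice, against 82.2, 130, 90.3 and 93.5 FPKM in saline mice. The saline spread came mostly from S2, and without that library the log2 fold change of Lmtk3 was -0.46 in place of -0.60 and passed the threshold (adjusted p = 0.0408 from limma). Pura, a nucleic acid binding protein of neurons, was 27.7 to 35.0 FPKM in MPTP + EX mice and 37.96 to 47.8 FPKM in saline mice. Fbxw4, an F-box protein of a ubiquitin ligase that overlaps Dpcd, was 20.2 to 25.1 FPKM with MPTP + EX and 28.7 to 31.4 FPKM with saline. Without mouse E27, Fbxw4 and Snord53 passed (adjusted p = 0.0222 and 0.0335 from limma). The polo-like kinase Plk5 (46.1 to 53.3 FPKM with MPTP + EX, against 58.1 to 67.2 FPKM with saline), the chromatin remodelling subunit Arid1a (25.6 to 29.4 FPKM with MPTP + EX, against 31.0 to 37.0 FPKM with saline), the Wnt pathway protein Dvl3 (37.2 to 39.0 FPKM with MPTP + EX, against 43.6 to 45.7 FPKM with saline), the ubiquitin ligase Rnf217 (6.69 to 8.14 FPKM with MPTP + EX, against 10.04 to 12.7 FPKM with saline) and the transcription factor Maf (14.7 to 16.7 FPKM with MPTP + EX, against 19.1 to 20.3 FPKM with saline) were all lower in every MPTP + EX library than in any saline library.

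Genes of the same set that were higher included 4 zinc finger genes with small, tight differences. Zscan21 was 7.69 to 8.23 FPKM in MPTP + EX mice and 5.52 to 6.31 FPKM in saline mice, and Zfp612 was 18.1 to 20.2 FPKM with MPTP + EX, against 14.2, 13.3, 15.9 and 15.4 FPKM with saline. Zfp260 and Zfp330 had log2 fold changes of 0.27 each. Htra1, a secreted protease, was 78.4 to 81.8 FPKM in MPTP + EX mice and 58.0 to 67.5 FPKM in saline mice. Fgf1, a fibroblast growth factor, was 47.2 to 50.5 FPKM with MPTP + EX, against 38.4 to 43.0 FPKM with saline. The RNA polymerase III subunit Polr3f, the amino sugar enzyme Gnpnat1 and the lipid phosphatase Inpp5f had log2 fold changes of 0.38, 0.41 and 0.23. Apart from Fos, Snord53, Npas4 and Zbtb16, the log2 fold changes of the 25 genes lay between -0.60 and 0.56.

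Fos apart, immediate early genes went both ways and none passed adjustment. Of 29 tested, Fos included, 15 were higher and 14 lower, with a median log2 fold change of 0.02, and 8 were higher and 4 lower at an unadjusted p under 0.05. Npas4, a neuronal transcription factor that depends on calcium entry, was 3.39, 5.63, 3.68 and 4.82 FPKM in MPTP + EX mice, against 2.21, 2.45, 2.21 and 1.30 FPKM in saline mice (log2 fold change 0.82 and standard error 0.162, with an adjusted p of 0.177 from limma). Ier2 was 9.94, 15.6, 13.3 and 12.6 FPKM with MPTP + EX, against 10.8, 7.58, 7.51 and 8.68 FPKM with saline, and its groups overlapped by the pair E26 and S1. The transcription factor Klf2, which blood vessels also express, ran the other way, with 7.45 to 10.999 FPKM in MPTP + EX mice and 11.6 to 24.9 FPKM in saline mice, highest in S2. Without S2 the list was 19 higher and 10 lower, with a median of 0.16. At an unadjusted p under 0.05, 11 were then higher and 3 lower. The MPTP mice without exercise were spread over both groups: Fos was 19.4, 20.6 and 23.1 FPKM in M16, M21 and M6, within or just below the MPTP + EX range, and 9.07 FPKM in M23, within the saline range.

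**Figure D2:**
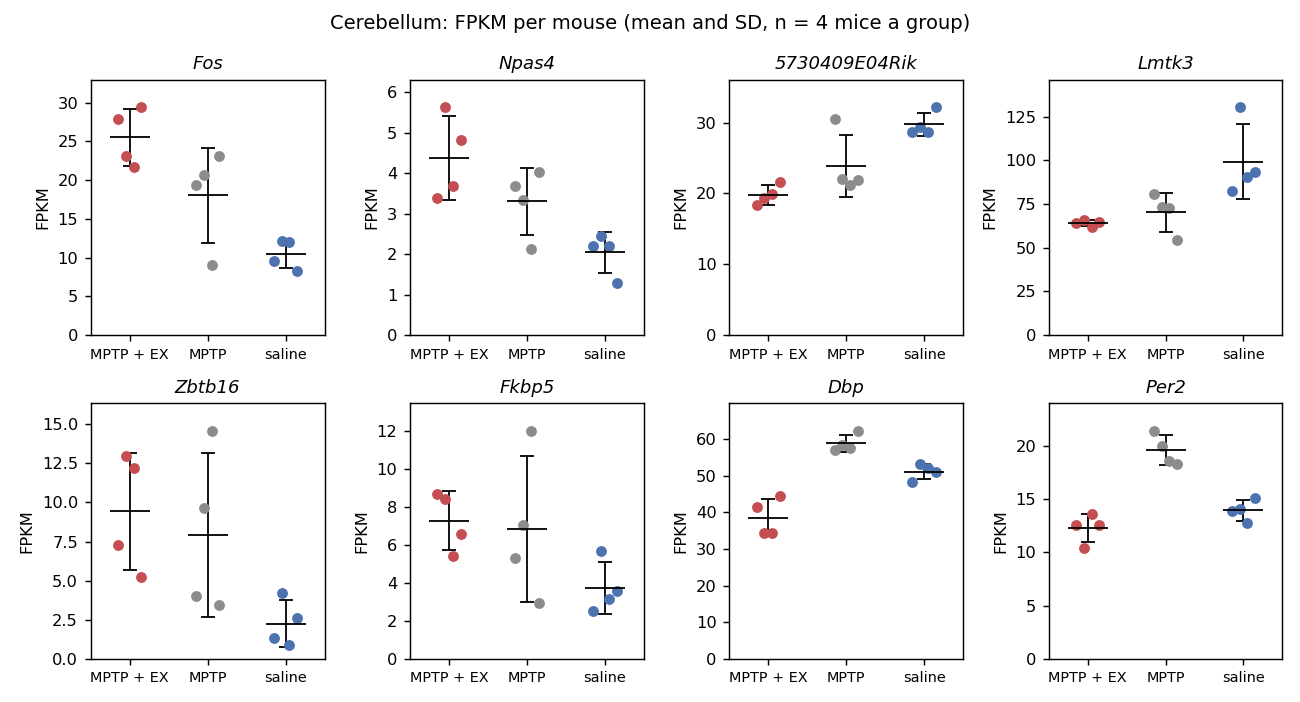
FPKM (y axis, from 0) of 8 genes in each cerebellar library (points), with the group mean and SD as bars, for 4 mice each of MPTP + EX, MPTP and saline. Fos, Npas4 and Zbtb16 are higher in every MPTP + EX mouse than in any saline mouse and 5730409E04Rik, Lmtk3 and Dbp lower, Fkbp5 and Per2 overlap between those groups, and for Dbp and Per2 the MPTP mean is above both.

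Genes linked to glucocorticoid hormones were mostly higher. The list held targets of their receptor, and also Nr3c1 (the receptor itself), Nr3c2 and Hsd11b1. 23 of 27 were higher on average, with a median log2 fold change of 0.17 against 0.02 over all genes, and 9 were higher and 0 lower at an unadjusted p under 0.05, none past adjustment. Zbtb16, a zinc finger transcription factor induced by these hormones, had 7.28, 12.97, 12.2 and 5.25 FPKM in MPTP + EX mice, against 1.32, 4.21, 0.895 and 2.59 FPKM in saline mice (log2 fold change 1.71 with a standard error of 0.329 and, from limma, an adjusted p of 0.177). Its groups did not overlap, but both were wide, with E27 and E28 high among the MPTP + EX mice and S2 high among the saline mice. Fkbp5, a co-chaperone that restrains the receptor, had 8.72, 8.45, 5.41 and 6.60 FPKM in MPTP + EX mice, against 2.505, 5.68, 3.15 and 3.57 FPKM in saline mice, and overlapped only through S2 and E28. The lipid droplet gene Plin4 was 1.4996 to 2.54 FPKM with MPTP + EX, against 0.788 to 1.18 FPKM with saline, and the metallothionein Mt2 was 314 to 398 FPKM with MPTP + EX, against 215 to 315 FPKM with saline. Without S2, 12 of the list had an unadjusted p under 0.05, all higher, and its median was 0.21. The MPTP mice were wider still, with 4.04, 9.66, 14.6 and 3.41 FPKM of Zbtb16 and 5.31, 7.05, 12.0 and 2.95 FPKM of Fkbp5 in M16, M21, M23 and M6. For both genes M23 lay above every MPTP + EX mouse, and M16 and M6 lay within the saline range, whose upper end was S2.

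Genes of the core circadian clock hardly differed between MPTP + EX and saline mice. 10 of 17 were higher and 7 lower, with a median log2 fold change of 0.03, and 2 were higher and 0 lower at an unadjusted p under 0.05 (1 and 1 without S2). Clock, a partner of Arntl in activating the other clock genes, was 14.1 to 17.1 FPKM in MPTP + EX mice and 11.9 to 14.3 FPKM in saline mice. The activator Arntl and the repressors Per1 and Nr1d1 had log2 fold changes of 0.08, 0.03 and -0.05, and the sign of Per1 depended on which mouse was left out. Per2 was 12.6, 10.4, 13.6 and 12.5 FPKM in MPTP + EX mice, against 13.9, 14.1, 12.7 and 15.1 FPKM in saline mice, which overlapped (log2 fold change -0.17, adjusted p = 0.321 from limma). Cry2, a further repressor, had a log2 fold change of -0.13.

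Of 13 output genes driven by the clock, 5 were higher and 8 lower (median -0.05), 2 and 2 of them at an unadjusted p under 0.05. Dbp, a transcription factor of large daily swings, was 41.3, 34.3, 34.2 and 44.4 FPKM in MPTP + EX mice, against 48.2, 53.2, 52.1 and 51.0 FPKM in saline mice, with no overlap (log2 fold change -0.41 with a standard error of 0.0821 and, from limma, an adjusted p of 0.177). Gm129, now named Ciart, a repressor of the clock, was 6.67 to 9.36 FPKM with MPTP + EX, against 9.71 to 12.9 FPKM with saline. Tef and Hlf, of the same family as Dbp, had log2 fold changes of -0.13 and -0.12. Nfil3, which represses the genes that Dbp activates, ran the other way, with 9.96 to 12.1 FPKM in MPTP + EX mice and 7.56 to 10.6 FPKM in saline mice, and the phosphatase gene Pdp1 was 13.4 to 15.2 FPKM with MPTP + EX, against 10.8 to 12.96 FPKM with saline. The MPTP mice were above both groups for Dbp (57.1 to 62.3 FPKM), for Per2 (18.3 to 21.4 FPKM) and, in 3 of 4, for Gm129 (12.0 to 15.5 FPKM). The part of the hour of death in these values was not tested.

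Chaperones and genes of the endoplasmic reticulum (ER) stress response were higher on average by small amounts. 29 of 33 heat shock proteins and chaperones were higher, with a median log2 fold change of 0.11, and 7 were higher and 1 lower at an unadjusted p under 0.05. The subunits Cct4 and Cct6a of the chaperonin that folds actin and tubulin were 36.4 to 44.6 FPKM in MPTP + EX mice, against 32.03 to 35.7 FPKM in saline mice, and 53.5 to 59.4 FPKM with MPTP + EX, against 47.1 to 52.0 FPKM with saline. The heat shock factors differed in sign. Hsf2 had 8.67 to 9.75 FPKM with MPTP + EX, against 6.47 to 8.37 FPKM with saline, and Hsf1, the main activator of the heat shock response, 23.9 to 29.01 FPKM with MPTP + EX, against 29.1 to 32.5 FPKM with saline, neither past adjustment. Of 27 ER stress genes 25 were higher (median 0.145), 3 at an unadjusted p under 0.05: the transcription factor Atf4 (66.4 to 71.9 FPKM in MPTP + EX mice, 52.6 to 64.2 FPKM in saline mice) and the co-chaperones Dnajc3 and Dnajb9. Library E28 was highest in both lists, with a summed FPKM of 3644 for chaperones and 1338 for ER stress genes, where the other MPTP + EX libraries had 2969 to 2996 and 941 to 960 and the saline libraries 2855 to 2993 and 854 to 985. The sums of the other 3 MPTP + EX libraries thus met or overlapped those of saline. Without S2, the genes at an unadjusted p under 0.05 were 4 higher and 1 lower among chaperones and 1 higher among ER stress genes.

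**Figure D3:**
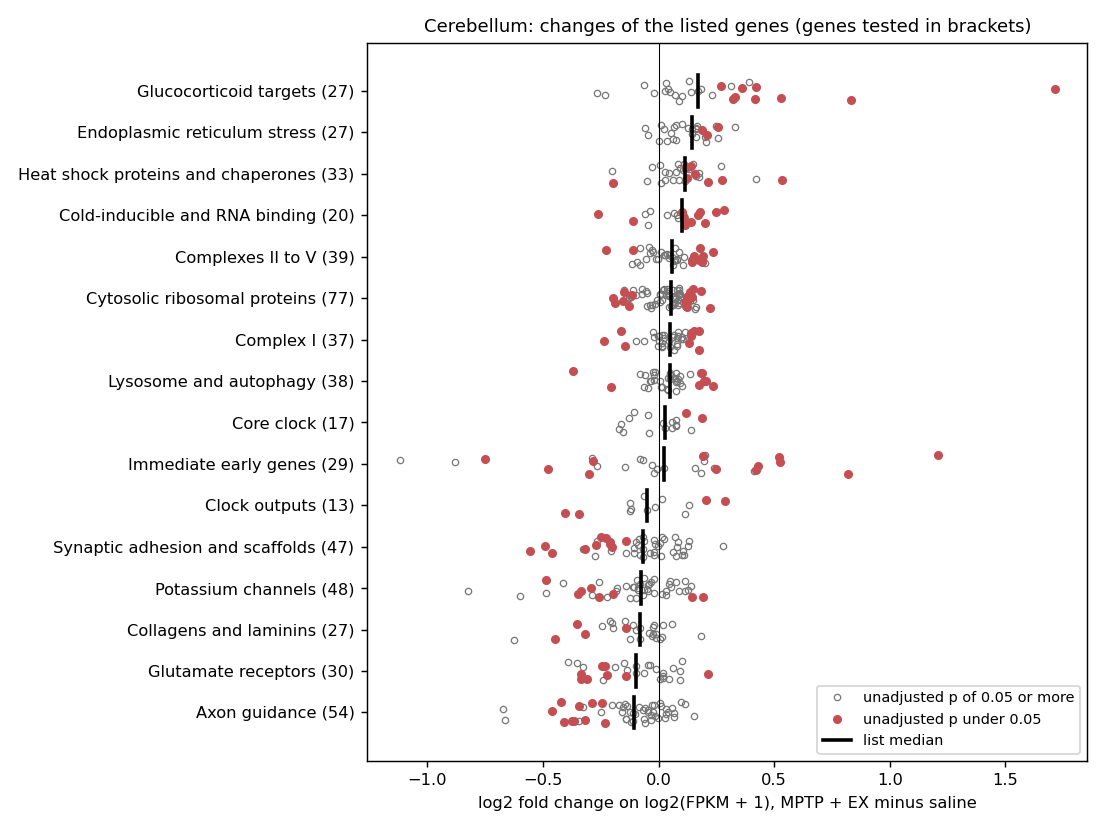
Log2 fold change on log2(FPKM + 1) (x axis, MPTP + EX minus saline) of each tested gene of 16 lists (rows), with filled red points for an unadjusted p under 0.05 and a black bar for the list median. Medians run from 0.171 for glucocorticoid targets to -0.105 for axon guidance genes.

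Genes of synapses and of neuronal surfaces leaned the other way. Of 47 synaptic adhesion and scaffold genes 32 were lower, with a median log2 fold change of -0.07, and 11 were lower and 0 higher at an unadjusted p under 0.05 (9 without S2, with a median of -0.03). Nlgn2, the neuroligin of inhibitory synapses, was 71.3, 74.6, 67.2 and 71.1 FPKM in MPTP + EX mice, against 81.3, 90.3, 84.4 and 82.2 FPKM in saline mice (log2 fold change -0.25 with a standard error of 0.0489 and, from limma, an adjusted p of 0.177). The scaffold Shank1, found in Purkinje cell spines, was 49.1, 56.1, 46.0 and 45.7 FPKM with MPTP + EX, against 62.4, 87.2, 66.2 and 64.4 FPKM with saline, highest in S2. Shank3 and Ptprs, a receptor phosphatase of axon terminals, had log2 fold changes of -0.20 and -0.21. In all 4 genes each MPTP + EX library lay below every saline library.

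Glutamate receptor genes were lower in 20 of 30 cases (median -0.10), 7 lower and 1 higher at an unadjusted p under 0.05, and 4 lower and 1 higher without S2. Cacng7, an auxiliary subunit of AMPA receptors, was 166 to 187 FPKM in MPTP + EX mice and 201 to 217 FPKM in saline mice. Grm4, the metabotropic receptor on granule cell axons, was 108, 134, 111 and 123 FPKM with MPTP + EX, against 139, 149, 137 and 139 FPKM with saline, and 95.3 to 116 FPKM in MPTP mice, so all 8 mice given MPTP lay below the saline mice. Grin2d, an NMDA receptor subunit, had 6.39 to 7.63 FPKM with MPTP + EX, against 6.78 to 10.7 FPKM with saline. Grik2, a kainate receptor subunit, was higher, with 19.2 to 20.7 FPKM with MPTP + EX, against 14.6 to 18.8 FPKM with saline. Receptors for GABA and glycine split evenly, 11 higher and 11 lower, 5 and 2 of them at an unadjusted p under 0.05 (1 and 1 without S2). Among genes of vesicle release, 5 were lower and 1 higher at an unadjusted p under 0.05 (2 and 1 without S2), including Slc32a1, the vesicle transporter for GABA and glycine (77.8 to 82.1 FPKM with MPTP + EX, against 83.8 to 97.0 FPKM with saline).

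Axon guidance genes were mostly lower on average. 42 of 54 were lower (median -0.105), 10 lower and 0 higher at an unadjusted p under 0.05, but 5 lower without S2. Epha8, an ephrin receptor, was 17.3 to 20.5 FPKM in MPTP + EX mice and 21.2 to 25.3 FPKM in saline mice, and the semaphorin Sema6b was 30.9 to 33.9 FPKM with MPTP + EX, against 34.6, 51.1, 36.6 and 44.7 FPKM with saline. Potassium channel genes were lower in 34 of 48 cases, 6 at an unadjusted p under 0.05 with 2 higher (4 and 0 without S2). Kcnc1, a channel for fast firing in granule and Purkinje cells, was 240, 256, 237 and 263 FPKM in MPTP + EX mice, against 282, 294, 276 and 289 FPKM in saline mice. The T-type calcium channels Cacna1i and Cacna1g had log2 fold changes of -0.21 and -0.18. None of these genes passed adjustment, with adjusted p of 0.177 to 0.214 from limma.

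Genes of energy supply and protein synthesis showed small shifts in both directions. In respiratory complexes II to V, 26 of 39 genes were higher (median 0.06). At an unadjusted p under 0.05, 9 were higher and 2 lower (8 and 2 without S2). Among the higher ones, Cox5a was 120 to 125 FPKM in MPTP + EX mice and 95.6 to 112 FPKM in saline mice. Sdhc was 67.1 to 68.6 FPKM with MPTP + EX, against 56.9 to 64.9 FPKM with saline. Uqcrh was 197 to 203 FPKM with MPTP + EX, against 162 to 192 FPKM with saline. In complex I, 28 of 37 were higher, 6 higher and 3 lower at that p (4 and 2 without S2). However, the lowest p values there belonged to subunits that were lower, Ndufa5 (log2 fold change -0.23) and Ndufa12 (-0.15). Of 77 cytosolic ribosomal proteins 54 were higher (median 0.05), 14 higher and 6 lower at that p (16 and 2 without S2), with Rps13 at 124 to 136 FPKM with MPTP + EX, against 105 to 120 FPKM with saline. Many ribosomal protein genes have near-identical pseudogenes, so their FPKM are uncertain. RNA binding and splicing genes had 9 higher and 2 lower of 20 (6 and 1 without S2). The splicing regulator Tra2a was 50.1, 50.5, 56.6 and 48.3 FPKM in MPTP + EX mice, against 42.6, 39.4, 44.3 and 41.8 FPKM in saline mice, and Hnrnpa1 was 47.8 to 57.9 FPKM with MPTP + EX, against 41.96 to 45.0 FPKM with saline.

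Single members of other lists are given for their low p. The lysosomal membrane protein Lamp1 was 125 to 138 FPKM in MPTP + EX mice and 105 to 116 FPKM in saline mice, while Tfeb, the transcription factor of lysosomal genes, was 12.3 to 13.9 FPKM with MPTP + EX, against 15.2 to 21.7 FPKM with saline. Nrtn, the growth factor neurturin, was 2.68 to 3.92 FPKM with MPTP + EX, against 4.33 to 6.10 FPKM with saline, and Bdnf was 4.24 to 5.24 FPKM with MPTP + EX, against 3.07 to 4.64 FPKM with saline, which overlapped. Of 31 regulators of mitochondrial biogenesis and exercise, 19 were higher and 12 lower on average (15 and 16 without S2). At an unadjusted p under 0.05, 4 were higher and 1 lower (3 and 1 without S2). Pdk4, which spares glucose, had 3.67 to 4.59 FPKM in MPTP + EX mice and 2.68 to 3.80 FPKM in saline mice. Gabpa, an activator of respiratory genes that overlaps Atp5j, had 7.84 to 8.80 FPKM with MPTP + EX, against 6.502 to 7.25 FPKM with saline. Cpt1c, the brain form of carnitine palmitoyltransferase, was lower (log2 fold change -0.21).

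The list of synucleins and familial Parkinson's disease genes gave 1 higher and 3 lower of 22 at an unadjusted p under 0.05 (1 and 2 without S2). The mitochondrial protease Htra2 was 14.8 to 16.8 FPKM in MPTP + EX mice and 17.6 to 18.9 FPKM in saline mice, and the mitochondrial protein Chchd2 was 230 to 260.5 FPKM with MPTP + EX, against 222 to 229.5 FPKM with saline. Of 16 genes for MPTP handling and monoamine breakdown, 0 were higher and 1 lower at that p. The flavin monooxygenase Fmo2 was 2.38, 1.06, 1.15 and 0.869 FPKM in MPTP + EX mice, against 0.911, 0.804, 0.988 and 0.745 FPKM in saline mice, and 2.09 to 2.76 FPKM in MPTP mice.

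Markers of granule neurons and Purkinje cells went both ways. In bulk tissue, fewer cells of a type and less RNA per cell cannot be told apart. Of 19 granule neuron markers 10 were higher and 9 lower, 3 and 1 of them at an unadjusted p under 0.05, and their median of 0.01 had the other sign when libraries were scaled to the same median and without S2 (8 higher and 11 lower). Of 25 Purkinje cell markers 14 were higher and 11 lower (12 and 13 without S2), 0 and 1 of them at that p. Skor2, a transcriptional corepressor of Purkinje cells, was 6.55, 8.23, 6.21 and 7.08 FPKM in MPTP + EX mice, against 10.3, 9.12, 8.22 and 9.49 FPKM in saline mice. Calb2, a calcium binding protein of granule and unipolar brush cells, was 197 to 227 FPKM with MPTP + EX, against 155 to 195 FPKM with saline, and Eomes, a transcription factor of unipolar brush cells, was 9.59 to 14.6 FPKM with MPTP + EX, against 7.39 to 10.2 FPKM with saline. Smaller lists of other neurons leaned one way. Of 9 Golgi cell markers 1 was higher and 8 lower (0 and 2 at that p, or 0 and 1 without S2). Of 13 of molecular layer interneurons 4 were higher and 9 lower (0 and 1 at that p). Of 9 of deep cerebellar nuclei 3 were higher and 6 lower (1 and 0, or 2 and 0 without S2). Of 6 of unipolar brush cells 5 were higher and 1 lower (2 and 0). Glial lists went both ways. Of 23 markers of Bergmann glia and astrocytes 12 were higher and 11 lower (3 and 0 at an unadjusted p under 0.05), of 22 of oligodendrocytes 17 and 5 (3 and 0, or 1 and 0 without S2), of 12 of oligodendrocyte precursors 3 and 9 (0 and 0), and of 21 of microglia 8 and 13 (0 and 1, with 11 higher and 10 lower without S2). Among those of low p, S100b was 188 to 207 FPKM with MPTP + EX, against 153 to 187 FPKM with saline, the fatty acid carrier Fabp7 was 24.1, 39.7, 28.3 and 31.7 FPKM with MPTP + EX, against 20.0, 19.7, 19.6 and 27.1 FPKM with saline, and the oligodendrocyte gene Trf was 176 to 202 FPKM with MPTP + EX, against 147 to 171 FPKM with saline. None passed adjustment (adjusted p of 0.178 to 0.214 from limma).

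Lists of tissue around the cerebellum varied with the groups or with S2. All 15 choroid plexus markers tested were higher on average in MPTP + EX mice, with a median log2 fold change of 0.47, 2 at an unadjusted p under 0.05. Ttr, the thyroid hormone carrier that this tissue secretes, was 497, 544, 435 and 966 FPKM in MPTP + EX mice, against 579, 36.4, 567 and 165 FPKM in saline mice, so S2 and S4 were the low libraries. The folate receptor Folr1 and the potassium channel subunit Kcne2 were also lowest in S2 and S4. Without S2, 13 of 15 were higher with a median of 0.21 and 0 had an unadjusted p under 0.05. Ttr was 3.64 FPKM in M16 and 557 to 1146 FPKM in the other MPTP mice. The medians of blood and neocortical markers, -0.37 and -0.34, were 0.02 and 0.03 without S2. Of 17 markers of meninges and fibroblasts 12 were lower (median -0.18), 4 at an unadjusted p under 0.05 and 3 without S2. Fmod, a matrix protein of fibroblasts, was 4.71 to 6.89 FPKM in MPTP + EX mice and 7.76 to 9.28 FPKM in saline mice. Collagens and laminins were lower in 22 of 27 cases, with Col5a1 at 6.78 to 7.06 FPKM with MPTP + EX, against 7.48 to 10.9 FPKM with saline. The part of dissection in the results above was not tested.

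Dopamine genes were low in the cerebellum, and MPTP + EX and saline mice differed little in them. Slc6a3, the dopamine transporter, was at most 0.0442 FPKM in MPTP + EX mice and at most 0.135 FPKM in saline mice and was not tested. Th, the rate-limiting enzyme of dopamine synthesis, was 4.79, 6.11, 9.07 and 5.63 FPKM in MPTP + EX mice, against 5.89, 4.88, 7.64 and 5.54 FPKM in saline mice (log2 fold change 0.07, adjusted p = 0.868 from limma). The vesicular transporter Slc18a2 was highest in the same 2 libraries as Th, E28 and S3 (1.95 and 1.94 FPKM, where the other 6 had 0.638 to 1.01 FPKM), and the summed FPKM of markers of serotonin, noradrenaline and brainstem neurons was 4.75 and 6.77 in those libraries and 0.172 to 0.557 in the other 6. Nr4a2, a transcription factor of dopaminergic neurons that is also an immediate early gene, was 16.4, 12.8, 10.9 and 14.4 FPKM with MPTP + EX, against 10.502, 12.9, 10.8 and 6.06 FPKM with saline.

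The change in the cerebellum was then set against that of the other 3 regions of the same mice, as the difference between regions within each mouse. Against the SN, 5 of 12584 genes (0.0397%) passed the adjusted threshold: Clstn2 (a synaptic adhesion protein), Ddc (the enzyme that makes dopamine from DOPA), Ret (a receptor for neurotrophic factors), Bsn (a scaffold of release sites) and Sv2c (a vesicle protein). All 5 fell in the SN and kept near their saline level in the cerebellum. Ddc had 41.8, 46.6, 42.3 and 29.9 FPKM in the SN of MPTP + EX mice, against 192, 248, 112 and 196 FPKM in that of saline mice, while in the cerebellum it had 2.99, 2.21, 3.304 and 2.54 FPKM with MPTP + EX, against 2.497, 2.72, 2.68 and 3.18 FPKM with saline. Its change in the cerebellum minus its change in the SN was 2.15 on the log2 scale (standard error 0.232, adjusted p = 0.0156 from limma). Clstn2 had 16.8 to 19.2 FPKM in the cerebellum of MPTP + EX mice and 18.4 to 19.3 FPKM in that of saline mice, and in the SN it had 11.4 to 14.2 FPKM with MPTP + EX, against 24.8 to 27.9 FPKM with saline (difference 0.94, standard error 0.0959, adjusted p = 0.0156). The differences for Ret, Bsn and Sv2c were 1.91, 0.83 and 1.80 (adjusted p = 0.0156, 0.0156 and 0.0495). That for Th was 2.71 with an adjusted p of 0.0592. This count depended on single mice: it was 4 without E26, 1 without E27, 1 without E28, 6 without E29, 0 without S1, 3 without S2, 9 without S3 and 0 without S4.

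**Figure D4:**
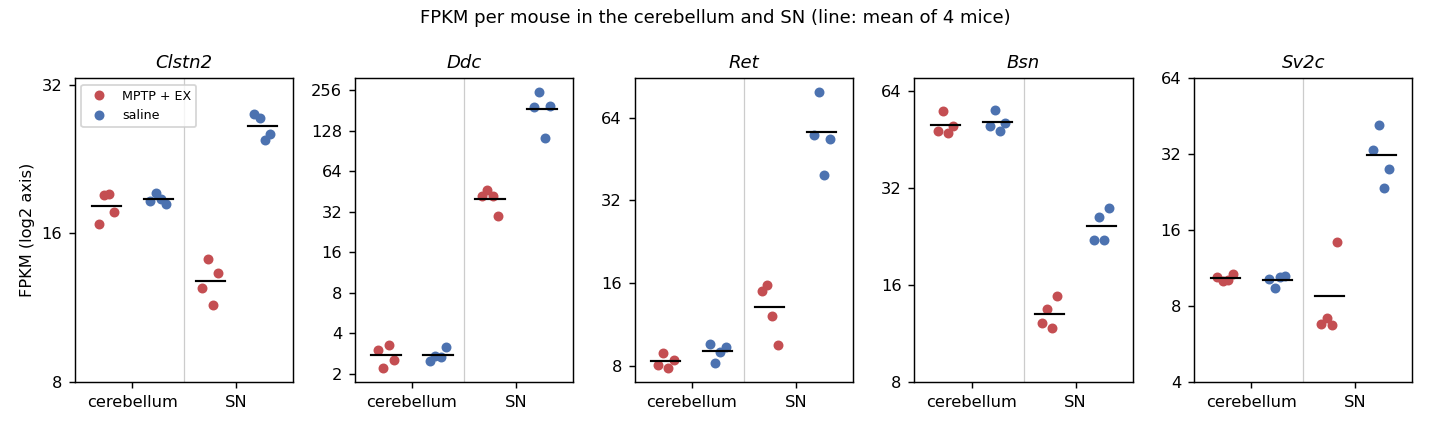
FPKM (y axis, log2) of the 5 genes whose change differed between the cerebellum and the SN, in MPTP + EX (left) and saline mice (right) of each region, one point a mouse and a line at the mean. The groups lie together in the cerebellum (Ddc 2.21 to 3.304 FPKM in MPTP + EX mice and 2.497 to 3.18 FPKM in saline mice) and apart in the SN (29.9 to 46.6 FPKM in MPTP + EX mice and 112 to 248 FPKM in saline mice).

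Against the cortex and the striatum, 0 genes passed (0% of 12380 and 0% of 12432 tested), with a lowest adjusted p of 0.394 and 0.7 from limma, and 1027 and 108 genes had an unadjusted p under 0.05 (543 against the striatum without E29). Without E28, 2 genes (Syne1 and Ttr) passed against the cortex, and without E29, whose striatal library had 0.366 FPKM of Sv2c where the other MPTP + EX mice had 25.3 to 26.7 FPKM, Hnrnpc passed against the striatum. Syne1, Ttr and Hnrnpc were named after their values were seen. Striatal library E29 also had 0.132 FPKM of Spred2 and 47.1 FPKM of Flywch2. The other MPTP + EX mice had 26.9 to 27.8 and 8.29 to 9.48 FPKM of them. Within the striatum, 141 of 13222 genes had an unadjusted p under 0.05 between MPTP + EX and saline mice, against 2153 of 12945 in the cerebellum. The count of 0 thus does not show that striatum and cerebellum changed alike. The gene of lowest p against the cortex was 5730409E04Rik, with a change of -0.56 in the cerebellum and 0.26 in the cortex (difference -0.82, standard error 0.121, adjusted p = 0.394). In the SN and striatum its change was 0.16 and 0.29 (0.089 in the striatum without E29), and neither difference from the cerebellum passed adjustment (adjusted p = 0.0802 against the SN, and 0.7 against the striatum or 0.994 without E29). Hnrnpa1, Flywch2 and Spred2, the next after it along with Ttr, had changes of 0.25, 0.25 and -0.28 in the cerebellum and -0.13, -0.47 and 0.09 in the cortex.

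Fos, Zbtb16 and Fkbp5 were higher on average in the other regions too, and their striatal changes depended on library E29. The change of Fos was 1.21 in the cerebellum, 0.61 in the cortex, 0.50 in the SN and 0.17 in the striatum. No difference of the cerebellum from these regions passed adjustment (adjusted p = 0.411, 0.202 and 0.7 from limma). Striatal Fos was 16.03, 14.3, 11.4 and 5.50 FPKM in MPTP + EX mice E26 to E29, against 10.9, 10.7, 12.0 and 6.27 FPKM in saline mice, and without E29 its change was 0.46. Zbtb16 had changes of 1.71, 0.87, 1.61 and 0.90 in the same order of regions, and Fkbp5 had 0.83, 0.68, 0.93 and 0.44. Striatal Zbtb16 was 8.31, 12.6, 13.6 and 0.247 FPKM in MPTP + EX mice, against 2.17 to 3.01 FPKM in saline mice, and without E29 its change there was 1.72 (adjusted p = 0.00977 from limma), while that of Fkbp5 was 0.65 (adjusted p = 0.222). The change of Dbp was -0.41 in the cerebellum, -0.42 in the cortex, -0.07 in the SN and 0.01 in the striatum. Striatal Dbp was 81.5, 65.9, 74.0 and 259 FPKM in MPTP + EX mice, against 88.5 to 106 FPKM in saline mice, so E29 alone was above the saline mice, and without it the change was -0.44 (adjusted p = 0.37). With all 8 mice, Fos in the cerebellum was the single call among these 4 genes in the 4 regions.

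The MPTP mice without exercise differed among themselves. For the 25 genes of lowest p in the comparison of MPTP + EX with saline mice, each MPTP library was given a position on the log2 scale at which 1 is the mean of MPTP + EX and 0 that of saline. Because the genes were chosen on the difference between those groups, only the order of the MPTP libraries among themselves is described. M6 had a median position of 0.90, M21 of 0.72, M23 of 0.59 and M16 of 0.23. 5730409E04Rik was 30.5 FPKM in M16 and 21.2 to 22.1 FPKM in the other MPTP mice, and Pura, Plk5, Lmtk3 and Nlgn2 were likewise highest in M16. M16 also had the lowest choroid plexus sum (54.1) and the highest blood sum (1901) of all 12 cerebellar libraries, the same direction as S2, though its neocortical sum was 92.9.

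**Figure D5:**
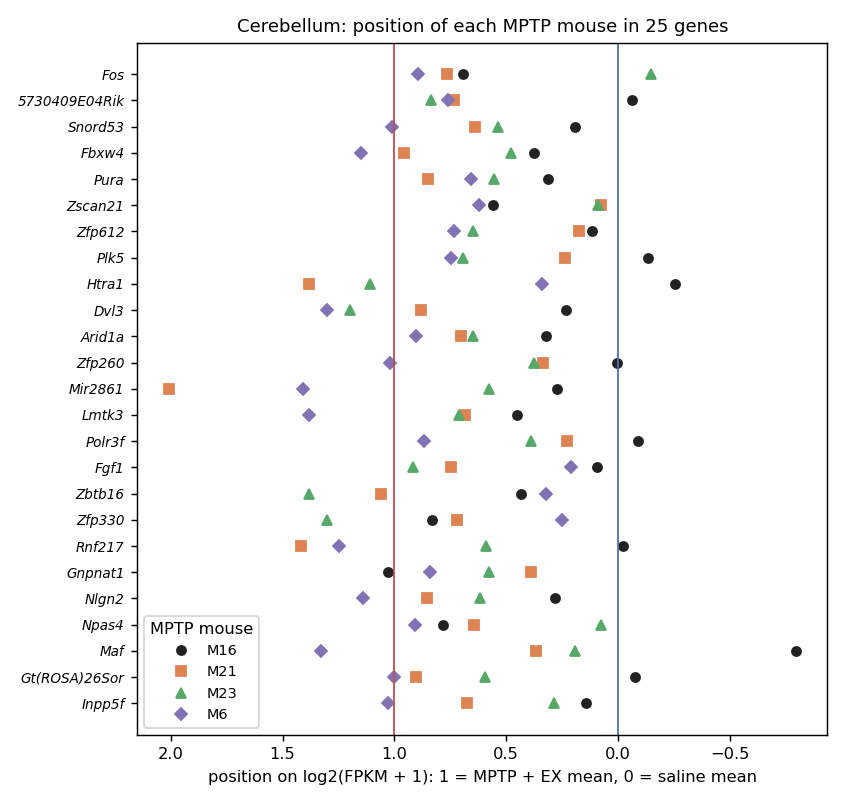
Position of each MPTP mouse (x axis, 1 at the MPTP + EX mean and 0 at the saline mean on log2(FPKM + 1), high values to the left) for the 25 genes of lowest p whose MPTP + EX and saline groups did not overlap (rows). M6 has a median position of 0.90 and M16 of 0.23, with M21 and M23 between them at 0.72 and 0.59.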

How the data were processed

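The authors deposited FPKM for 23366 gene names in 48 libraries. The paper's methods name TopHat2, Cufflinks and RSEM, and the submitters' processing notes name HISAT2 (version 2.1), HTSeq (version 0.11) and the build mm9; the sources differ, so which of these made the deposited values could not be settled, and neither states whether strand was used. Columns name a region, a treatment letter and a mouse, and were mapped to groups by the labels. 27 names turned into dates were left out (0.294% to 0.31% of the column sums). Genes with a mean above 1 FPKM over the 8 libraries were tested as log2(FPKM + 1) with limma (version 3.58.1, R version 4.3.3), with an intensity trend and Benjamini-Hochberg adjustment. FPKM are not counts, so no count test was run and no counting error is given. Region differences were fitted on within-mouse differences, with the trend on the mean of both regions. The fits were tested on simulated data.

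The members and gene lists were chosen with earlier results of these data known. Named genes were the 25 of lowest p whose groups did not overlap (up to 15 in each direction), up to 4 of lowest p of each list described, clock genes, markers, dopamine genes and up to 5 per region difference. Overlapping genes were looked up by name in RefSeq (GRCm38.p6), which matched all 109 named genes. Alternatives were a pseudocount of 0.1, other filters, median scaling, quantile normalization, a fit of 3 groups, no trend, array weights and each mouse left out. List counts without S2 and striatal changes without E29 were added after seeing the data. Mitochondrially encoded genes and promoter or protein sequences were not analysed here, and a few withheld genes are not reported here.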

Additional observations from a re-analysis of the deposited data

Results flagged for a closer look

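In 226 groups of 4 libraries checked, 20 had 1 library far from the other 3 by Dixon's criterion. Chance flags about 1 in 20 independent groups of normally distributed values. The groups here share the same libraries and many of their genes were named for low p, so the count cannot be set against that rate. 10 of the 20 were saline library S2. It was the high one for Rnf217 (12.7 FPKM), Per1 (40.9 FPKM), Shank1 (87.2 FPKM), Grm4 (149 FPKM), Hba-a2 (944 FPKM) and Slc30a3 (14.5 FPKM), the low one for Gnpnat1 (4.89 FPKM) and Cct6a (47.1 FPKM), and the high one for the summed FPKM of blood (1475) and neocortical markers (153). Hba-a2 has a near-identical paralogue, so its level is uncertain.

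Other saline libraries stood out singly. Htra1 was low in S3 (58.0 FPKM) and Slc18a2 high in it (1.94 FPKM), Cry2 was low in S1 (40.65 FPKM), and Hlf (27.7 FPKM) and Fabp7 (27.1 FPKM) were high in S4. Among MPTP + EX libraries, E27 was high for Zfp330 (14.5 FPKM) and low for Tfeb (12.3 FPKM) and Slc30a3 (0.728 FPKM), E28 was high for Dnajc3 (25.96 FPKM), and E29 had the highest choroid plexus sum (1232).

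The change of 5 genes differed between the cerebellum and the SN by the test of the difference itself. On the log2 scale, the cerebellum minus the SN was 0.94 for Clstn2, 2.15 for Ddc, 1.91 for Ret, 0.83 for Bsn and 1.80 for Sv2c.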

How the results depend on the processing

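MPTP + EX and saline mice were compared as independent groups. No paired analysis was possible because the columns carry no replicate number of the labels and each mouse belongs to 1 group. This limit concerns that comparison only, since the differences between regions were paired within each mouse. The 2 genes past adjustment (Fos and 5730409E04Rik) were the same 2 with a pseudocount of 0.1, the higher group mean above 1 FPKM, a common median, quantile normalization and array weights. The count was 0 with no filter, with the fit of 3 groups and with no trend, where Fos had adjusted p of 0.084, 0.129 and 0.0838 from limma. With 1 mouse left out it was 0 to 6, and genes without overlap numbered 1552 to 2434. Genes at an unadjusted p under 0.05 numbered 1479 to 2618. With 1 mouse left out, the genes that differed from the cortex were 0 to 2, from the SN 0 to 9 and from the striatum 0 to 1, and an interaction over 16 libraries that ignores the mouse gave 13 for the SN.

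Among 109 named genes, 13 of 1744 log2 fold changes had the other sign, in 8 genes and each time with 1 mouse left out. Over those fits Per1 ran from -0.027 to 0.091 (below 0 without E26, E29 or S3), Pcp2 from -0.12 to 0.016 (above 0 without S1), Hba-a2 from -0.049 (without S3) to 3.15, Th from -0.092 to 0.17 (below 0 without E28 or S2), Slc18a2 from -0.078 (without E28) to 0.30, Ddc from -0.076 to 0.065 (above 0 without E27, E29 or S4), Bsn from -0.077 to 0.013 (above 0 without S2) and Sv2c from -0.0067 (without S2) to 0.039. Of 688 list medians 31 changed sign, in 14 of 43 lists. Read totals are unknown and 4 mice a group limit what small differences can show.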

Other observations

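The cerebellar levels of Sst, the peptide somatostatin, fell into separate levels that did not follow the groups. It was 35.9 and 35.5 FPKM in E26 and E28 and 4.64 and 7.05 FPKM in E27 and E29 of the MPTP + EX mice, against 74.0, 39.3 and 40.7 FPKM in S2, S3 and S4 and 3.49 FPKM in S1 of the saline mice. The MPTP mice had 25.7 to 38.9 FPKM.

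The genes that the study's text names and that were in the table numbered 33, of which 25 passed the filter, 4 had an unadjusted p under 0.05 and 0 passed adjustment in the cerebellum. Interferon response genes were higher in 12 of 16 cases, with a median log2 fold change of 0.13 and 0 at an unadjusted p under 0.05 (1 higher without S2). Genes of inflammation and complement were lower in 11 of 14 cases, with 1 higher and 1 lower at that p. Genes of glycolysis and lactate transport were 12 higher and 14 lower of 26, and those of cholesterol synthesis 16 higher and 11 lower of 27 (12 and 15 without S2). Receptors for dopamine and acetylcholine were lower in 10 of 16 cases (median -0.125, and -0.05 without S2).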
